A study of Mus musculus with 21 samples.

Results

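Colon gene expression was compared between germ-free (GF) mice labelled Card9-/- and GF mice labelled wild type (WT) at day 7 of colitis induced by dextran sulfate sodium (DSS). The members are the 8 arrays whose time label is D7, of 21 arrays in the series, with 4 labelled GF Card9-/- and 4 labelled GF WT. The other 13 arrays, 7 and 6 by label, were made at day 0 on another array design. All mice were males on the C57BL/6J background, had no microbiota, and had drunk 2% DSS for 7 days. The groups differ by the label for the deletion of Card9 and in part by slide, since 2 of the 6 slides hold 1 array of each label and the other 4 hold a single array each. RNA came from total colon tissue, and only preparations with an integrity number above 9 were kept. The study's methods place GF C57BL/6J mice in isolators on a diet without yeast, and do not give the age of the mice behind these arrays. The labels number the arrays GF Card9-/- 2, 2.1, 4 and 6 and GF WT 1, 4, 5 and 6. They do not say that each array is a separate mouse, so the p-values measure the spread between arrays, which may be technical in part.

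DSS strips the colonic epithelium and lets luminal content reach the lamina propria, where myeloid cells, lymphocytes and stromal cells mount an inflammatory and then a reparative response. CARD9 is an adaptor of myeloid cells that links C-type lectin receptors, through the kinase Syk, to BCL10 and MALT1, to NF-κB and to cytokine genes. In a colon without microbes, signals from the damaged tissue itself and from food remain. The comparison asks which colonic genes differ with Card9 when no microbiota is present.

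The values are quantile normalized log2 processed signals, where a step of 1 is a doubling. Each difference is the mean under the GF Card9-/- label minus the mean under the GF WT label. Card9, the deleted gene, is the check of the labels. Its probe, A_55_P1986722, was designed on NM_001037747 and lies at chr2:26208462-26208521 on the minus strand of the mm9 build. The log2 signals were 7.995, 8.57, 7.93 and 8.02 on GF Card9-/- 2, 2.1, 4 and 6, and 7.85, 2.39, 2.41 and 2.38 on GF WT 1, 4, 5 and 6. The signal was therefore present on all 4 arrays labelled as knockout and on 1 of the 4 labelled as wild type, the reverse of what the labels state, and GF WT 1 stood with the other group. Before normalization the signals were 278, 368, 224 and 250 units against 204, 6.87, 7.08 and 3.29 units. The log2 difference was 4.37 (SE 1.24, adjusted p = 0.913 in limma), with a two-sided exact permutation p of 0.0286, the smallest that 4 arrays against 4 allow. Without GF WT 1 it was 5.73 (adjusted p = 0.00129), and with another background correction, normexp, it was 1.93 over all 8 arrays. On GF WT 4, 5 and 6 the probe was not well above background, so the size of the difference there depends on the background method. Against the detection limits of those 3 arrays the mean under the GF Card9-/- label was at least 15.4-fold higher, and on the slides that hold both labels the bound was 21.3-fold (GF Card9-/- 2 and GF WT 6) and 26-fold (GF Card9-/- 2.1 and GF WT 4). Which part of Card9 was deleted is not given in the sources used here, so whether the probe lies outside it was not tested. An exchange of labels between arrays was not tested either, and if all labels were exchanged every direction below would turn. All directions are those of the deposited labels.

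Probe sequences are shown for the Card9 check and for the lower genes of chromosome 14 described below, since the values of these genes are read from the probes shown. The first 30 of 60 bases of each are printed 5′ to 3′ as the array files list them, with no capitals because no part was singled out.
Card9, chr2:26208462-26208521, minus strand: cagggagagcccagagcagccctttatggc
Plac9a, chr14:26708383-26708442, minus strand: gaactggcttcaaaccttcccacagggccc
Tmem254a, chr14:26743472-26743531, minus strand: ctttttctggttctggaccaagataaagta
Tmem254c, chr14:26744273-26744332, minus strand: ggtgtagcctctctctccatcctgattgct
The whole probes have 55% G and C for Card9 and Plac9a, 38.3% for Tmem254a and 43.3% for Tmem254c. The longest run of bases that the Tmem254a and Tmem254c probes share is 5. Whether either probe also reads the other gene copy was not tested.

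Markers of the colon were present on all arrays, and those of the exocrine pancreas were bright on GF Card9-/- 2.1 and 6, as described below. Of the colonocyte list 19 of 20 tested genes, and of the goblet cell list 16 of 16, were well above background on all 8 arrays by the criterion of the scanner software. The Y-linked gene Ddx3y was well above background on all 8 arrays and the X-inactivation transcript Xist on 0. Between 42.2% (GF WT 1) and 57.1% (GF Card9-/- 2) of the spots of an array were well above background, and no spot was saturated. With 4 arrays a label, precision is set by the number of arrays.

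No probe differed between the labels after adjustment. Of 44624 tested probes, 0 had an adjusted p under 0.05 in limma (0% called), the lowest adjusted p was 0.312, and 3 probes lay under 0.5. At an unadjusted p under 0.05 there were 1511 probes (3.39% called), of which 903 had higher and 608 lower values under the GF Card9-/- label. For 947 probes (2.12% called) the values of the labels did not overlap, 481 higher and 466 lower. This split depends on the scaling, since scaling each array to its 75th percentile gave 329 higher and 640 lower. The excess of lower probes under that scaling lay in the 10116 probes that were well above background on no array, whose median difference went from −0.02 to −0.50. By gene, taking the brightest probe, 409 of 21076 genes (1.94% called) did not overlap, with 216 higher (1.02% called) and 193 lower (0.916% called).

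The differences were small for most probes. The median over all tested probes was 0.00 on the log2 scale, with 95% of the probes between −0.92 and 1.01 and a median absolute difference of 0.20. The SD between arrays had a median of 0.32 under the GF Card9-/- label and 0.38 under the GF WT label. The labels took up 14.7% of the variance between arrays, where 1 of the 7 degrees of freedom is 14.3%. The 95% interval of a probe's difference reached a median of 0.64 to either side. For the 21126 probes well above background on all 8 arrays it was 0.46, and in 81.4% of these the interval lay inside a 2-fold change in either direction. Intervals wholly beyond a 2-fold change were found for 14 of all tested probes. For most bright probes the arrays therefore limited the difference to under 2-fold.

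**Figure D1:**
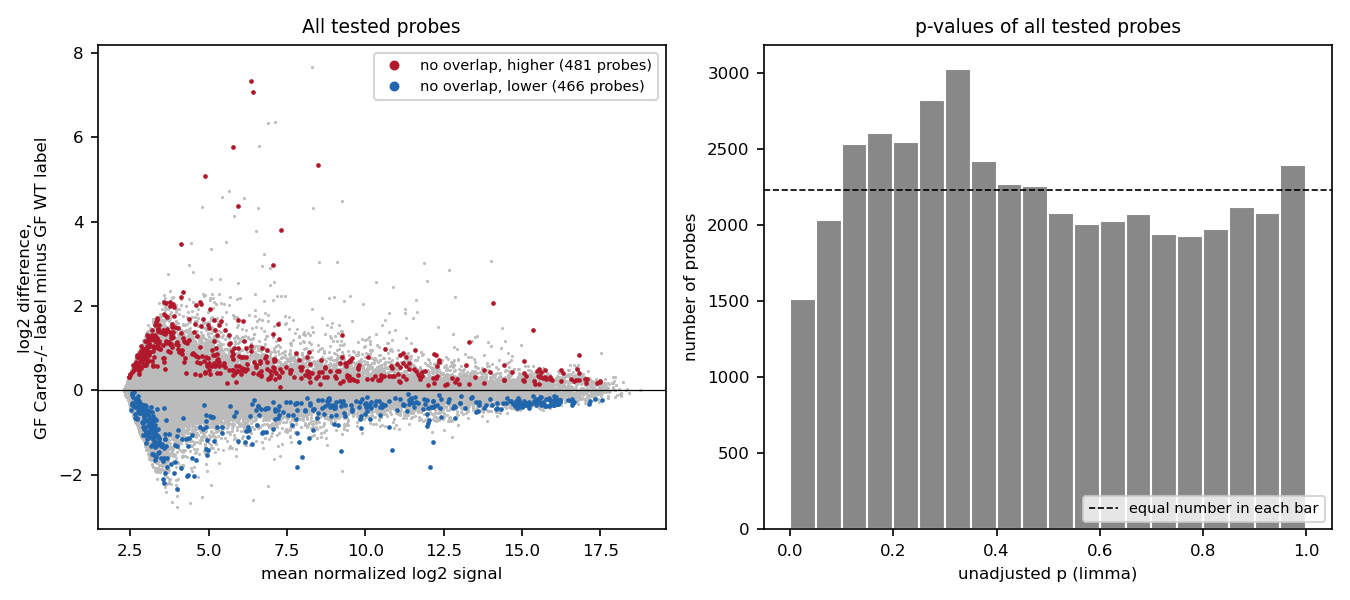
Left, each point is 1 of 44624 tested probes, by mean normalized log2 signal over the 8 arrays (x axis) and log2 difference between the labels (y axis), with the 481 probes higher and the 466 lower in every array labelled GF Card9-/- in red and blue. Right, number of probes (y axis) by unadjusted limma p (x axis) in bars of equal width, where the bar under 0.05 holds 1511 probes and the dashed line marks 2231, the height of equal bars.

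By class of transcript, 445 of 23537 probes on RefSeq mRNAs (1.89%) and 243 of 11374 probes on long intergenic noncoding RNAs (2.14%) did not overlap. The mRNA probes split evenly, 218 higher and 227 lower, while the intergenic probes were 147 higher and 96 lower. Of the intergenic probes 19.97% were well above background on all 8 arrays, against 64.3% of the mRNA probes. Probes that were well above background on some arrays but not on all had a median difference of 0.16, and 199 of their non-overlapping probes were higher against 73 lower. Their median was 0.06 with scaling to the 75th percentile (195 higher, 172 lower), 0.03 with normexp (202 higher, 82 lower), 0.04 in the deposited table (163 higher, 72 lower) and 0.03 with dim values raised (74 higher, 53 lower). Among probes well above background on all 8 arrays the order was the other way, 199 higher and 265 lower. The share of spots above background was itself 48.5% to 57.1% under the GF Card9-/- label and 42.2% to 55.9% under the GF WT label. Its part in the split of the dim probes was not tested.

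Arrays varied more with the single array than with the label. The correlation over tested probes was 0.969 to 0.980 between arrays both labelled GF Card9-/-, 0.957 to 0.979 between arrays both labelled GF WT and 0.950 to 0.988 across labels. The closest pair of all, GF Card9-/- 2 and GF WT 6 (r = 0.988), carries different labels and shares a slide, and the farthest was GF Card9-/- 2.1 with GF WT 5 (r = 0.950). The SD of the log2 difference between GF Card9-/- 2 and 2.1 was 0.852, within the range of 0.726 to 0.913 over the pairs with that label, so both were counted. The first principal component held 26.2% of the variance and set GF WT 1 (score 127) and GF WT 5 (84.6) apart from GF Card9-/- 2.1 (−76.0), with the other 5 arrays between −41.2 and 1.35. The second, with 22.4%, set GF WT 5 (−108) against GF WT 1 (102) and GF Card9-/- 2.1 (70.8).

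**Figure D2:**
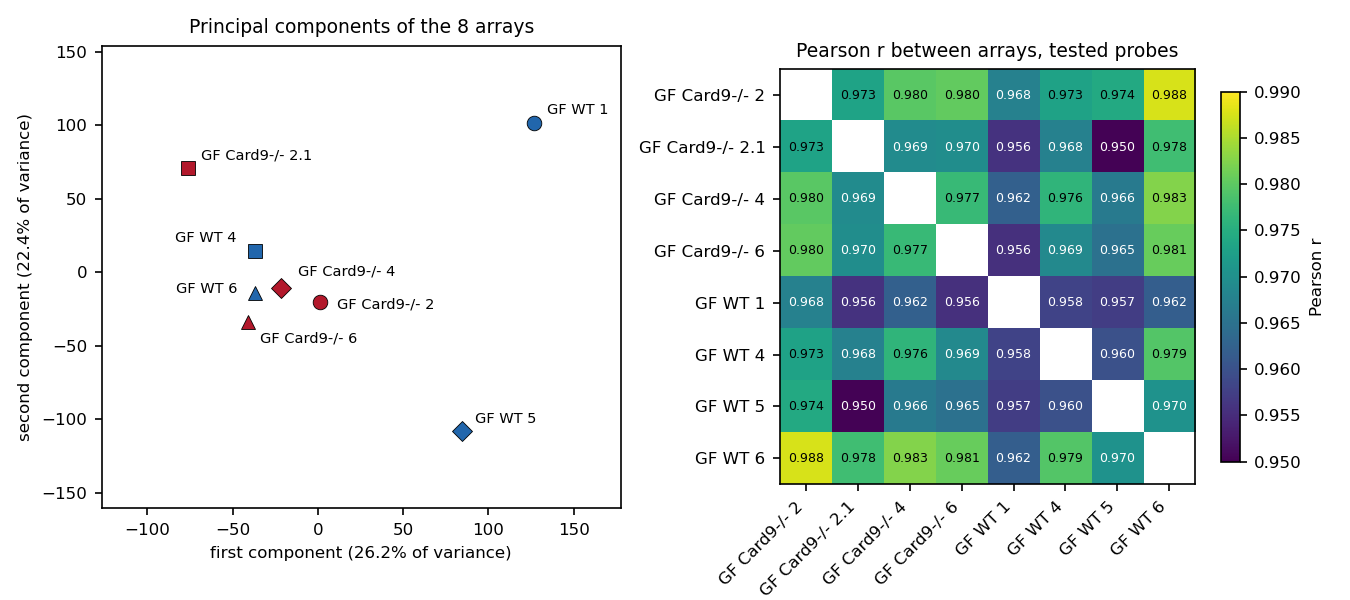
Left, the 8 arrays by their scores on the first and second principal component of the tested probes (axes, with percent of variance), red for the GF Card9-/- label and blue for the GF WT label. Right, Pearson r between each pair of arrays, where the highest is 0.988 (GF Card9-/- 2 and GF WT 6) and the lowest 0.950 (GF Card9-/- 2.1 and GF WT 5).

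The genes that set these arrays apart crossed the labels. Fxyd4, a regulator of the sodium pump in the distal colon, had log2 signals of 13.39, 3.60, 7.38 and 8.75 on GF Card9-/- 2, 2.1, 4 and 6 and 13.86, 8.25, 14.51 and 4.18 on GF WT 1, 4, 5 and 6. It was bright on GF Card9-/- 2, GF WT 1 and GF WT 5 and dim or intermediate on the other 5 arrays. The protease genes Tmprss13 (9.20, 10.09 and 10.85 on those 3 arrays, 3.66 to 5.82 elsewhere) and Casp14 (10.62, 11.14 and 11.48, against 6.03 to 7.21) followed the same arrays.

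Other genes ran the opposite way over the same arrays. Saa3, an acute phase protein, had log2 signals of 3.44, 9.93, 9.48 and 10.02 on GF Card9-/- 2, 2.1, 4 and 6 and of 4.06, 7.23, 2.77 and 8.79 on GF WT 1, 4, 5 and 6. It was dim on the same 3 arrays on which Fxyd4 was bright. Retnlb, a goblet cell defence protein, gave 10.15, 15.26, 13.77 and 14.28 against 9.61, 12.33, 6.41 and 13.04, again lowest on those 3 arrays. The sodium-proton exchanger Slc9a3 was at 7.11 on GF WT 5, at 11.43 on GF WT 1 and at 12.41 on GF Card9-/- 2, and at 14.22 to 14.80 on the other 5 arrays. The intestinal homeobox gene Isx ran from 6.75 on GF WT 5 to 12.58 on GF Card9-/- 4, while Hoxd13, a homeobox gene of the hindmost gut, was highest on GF WT 5 (11.08) and lowest on GF Card9-/- 2.1 (3.95). Where along the colon each sample was cut is not given in the labels, and its part in these values was not tested.

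GF WT 1 and GF Card9-/- 2.1 also differed from the rest in single features. Syt10, a synaptotagmin, was at 12.45 on GF WT 1 and 9.49 on GF Card9-/- 2.1 and at 4.10 to 6.28 on the other 6 arrays. On GF WT 1 the cholecystokinin receptor Cckar was at 2.65, against 5.74 to 8.33 elsewhere, and the receptor Epha7 at 2.51, against 6.32 to 8.36. The smooth muscle list was lowest on that array too, as given below. On GF Card9-/- 2.1 and GF WT 6 the immunoglobulin joining chain Jchain was at 5.91 and 6.61, against 8.64 to 12.62 on the other 6 arrays.

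Genes whose labels did not overlap were taken by size, 12 in each direction, among 150 candidates that were higher and 123 that were lower and well above background on every array of the brighter label. They were chosen for the difference, so their values are a description. In limma the adjusted p was 0.913 for 23 of these 24 and 0.312 for Tmem254a. Of the higher genes, Ctrb1 (chymotrypsinogen), Cel (bile salt-dependent lipase) and Ctrl (a chymotrypsin-like protease) are made by the exocrine pancreas. Ctrb1 had log2 signals of 6.11, 13.39, 7.80 and 17.40 against 5.74, 5.85, 5.67 and 6.07, in the order of arrays used above. Its lead on GF Card9-/- 2 over the nearest array labelled GF WT was under 0.05, and the difference of 5.34 came mostly from GF Card9-/- 2.1 and 6. Ctrb1 and Cel are counted in the pancreas list below. Ctrl, which is not in that list, was at 5.91, 8.70, 6.02 and 13.56 against 5.41, 5.37, 5.70 and 5.81.

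S100a9, a subunit of the neutrophil protein calprotectin, had log2 signals of 5.36, 6.04, 7.03 and 6.37 against 4.47, 4.53, 4.49 and 4.71 (difference 1.65, SE 0.33). The 4 arrays labelled GF WT lay within 0.24 of each other, and 1 of them was well above background. S100a8, the other subunit, was at 3.86, 3.40, 4.65 and 4.54 against 2.62, 2.56, 2.57 and 2.88, and was well above background on 1 of the 8 arrays. The signals of S100a8 in both labels and of S100a9 under the GF WT label were thus near the limit of detection, so no order is read from those arrays.

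Mcpt2, a protease of mucosal mast cells, was at 6.21, 7.94, 6.34 and 7.09 against 5.69, 4.74, 4.94 and 5.65 (difference 1.64, SE 0.43). Lypd6, a member of the Ly6 family, was at 7.04, 7.08, 5.94 and 6.99 against 4.23, 4.96, 5.42 and 5.78 (difference 1.67, SE 0.40). The labels lay 0.53 apart for Mcpt2 and 0.16 apart for Lypd6 at their closest arrays. The other tested probe of Lypd6 differed by 0.06. Under the GF WT label Mcpt2 was well above background on 1 of 4 arrays and Lypd6 on 2, so these differences are partly against background. Ahsg, the plasma protein fetuin-A, was well above background on all 4 arrays labelled GF Card9-/- and on none labelled GF WT, and at least 2.12-fold higher. For Gm3718 the same bound was 2.90-fold. A bound of this kind sets the mean of the bright group against the dimmest signal that counts as well above background on each array of the dim group.

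Rs5-8s1, a ribosomal RNA gene model, was at 15.64, 14.83, 14.06 and 15.97 against 12.23, 13.51, 12.39 and 14.03 (difference 2.08, SE 0.56). The closest arrays, GF Card9-/- 4 and GF WT 6, differed by 0.02. Ifna14 (difference 1.69), one of the many interferon alpha genes, was highest on GF Card9-/- 6 at 7.60 and differed by 0.04 between its closest arrays. B430306N03Rik, a gene model without a given function, differed by 1.67 (SE 0.47). Both genes were well above background on 1 of 4 arrays labelled GF WT. Rs5-8s1 and Ifna14 belong to families of near-identical copies, so the source of their signal is uncertain.

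Of the lower genes, 3 lie close together on chromosome 14. Tmem254a, a transmembrane protein gene, had log2 signals of 10.06, 10.16, 10.25 and 10.08 under the GF Card9-/- label and 11.68, 11.54, 11.81 and 11.20 under the GF WT label. The difference was −1.42 (SE 0.15), and the labels lay 0.95 apart at their closest arrays. Its neighbour Tmem254c had signals of 11.76, 11.91, 10.75 and 11.72 against 12.57, 12.69, 13.21 and 12.57 (difference −1.22, SE 0.29). Plac9a, a small secreted protein gene of the same stretch of chromosome 14, was at 11.07, 10.99, 11.29 and 11.34 against 12.46, 12.68, 14.24 and 12.55 (difference −1.81, SE 0.40). At their closest arrays the labels lay 1.12 apart for Plac9a and 0.66 apart for Tmem254c. Both tested probes of Plac9a gave the same, −1.81 and −1.83. The differences within the slides that hold both labels were −1.14 and −1.39 for Tmem254a and −1.48 and −1.69 for Plac9a.

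The other lower genes lie outside that stretch of chromosome 14. Nusap1 and Bub1b lie near each other on chromosome 2, at 119475072 and 118466830, and Hr lies on chromosome 14 at 70973263. Nusap1, which bundles spindle microtubules, had log2 signals of 7.23, 7.71, 6.77 and 7.60 against 8.23, 8.74, 7.93 and 8.45 (difference −1.01, SE 0.26). Bub1b, a kinase of the spindle checkpoint, had 6.48, 7.01, 5.65 and 6.23 against 7.24, 7.501, 7.22 and 7.38 (difference −0.99, SE 0.27). Lockd, a noncoding RNA next to the cell cycle inhibitor Cdkn1b, differed by −0.95 (SE 0.21). At their closest arrays the labels lay 0.21 apart for Nusap1 and Bub1b and 0.20 apart for Lockd. At day 0 the differences of these 3 genes had the other sign, 0.45 for Nusap1, 0.25 for Bub1b and 0.29 for Lockd, none with an adjusted p under 0.05.

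Pkp1, a plakophilin of desmosomes, was at 9.00, 9.15, 8.32 and 7.54 against 10.43, 9.34, 10.58 and 9.39 (difference −1.43, SE 0.45). It and the oxidoreductase gene Pyroxd2 (−1.24, SE 0.38) were highest on GF WT 1 and 5. Dnah8, a dynein heavy chain of cilia, differed by −1.14 (SE 0.25) on its brightest probe and by up to 0.67 on its others, the RNA-binding protein gene Csdc2 by −1.22 (SE 0.49), the complement-like C1qtnf5 by −1.01 (SE 0.41) and the corepressor gene Hr by −0.88 (SE 0.27). For Hr the closest arrays, GF Card9-/- 4 and GF WT 6, were less than 0.01 apart.

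**Figure D3:**
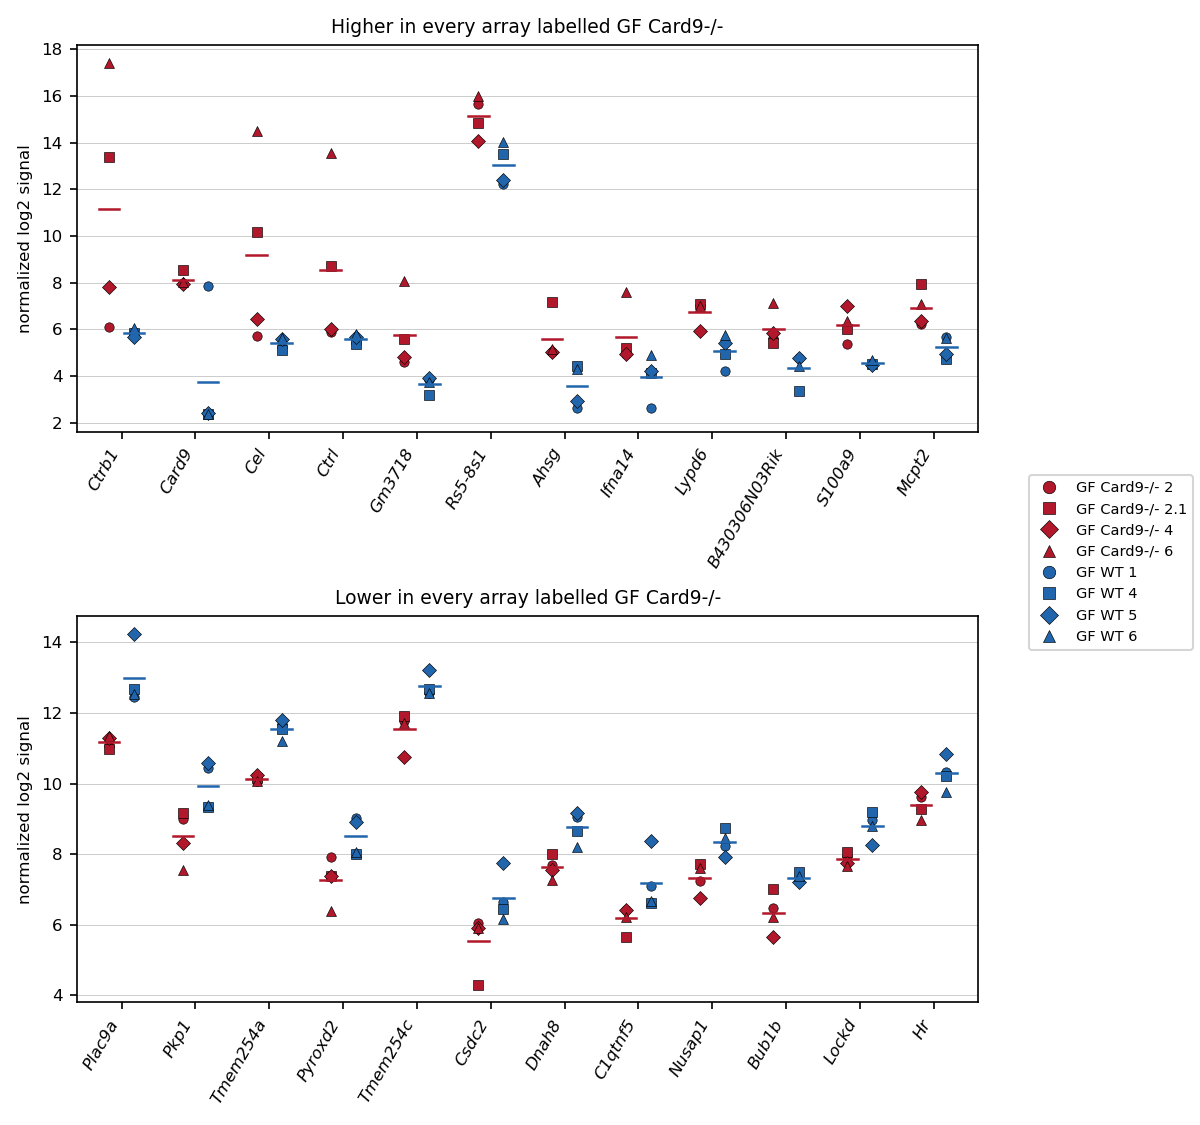
Normalized log2 signal (y axis) of the 12 higher and 12 lower genes with the largest differences whose labels do not overlap, with 1 symbol per array and a bar at each label's mean over 4 arrays. Ctrb1, Cel and Ctrl are spread out by GF Card9-/- 2.1 and 6, Card9 by GF WT 1, while the arrays of either label lie close together for Tmem254a.

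Genes that the study followed in the colon overlapped between the labels, apart from Card9 and, at the floor, Il17a. The cytokine genes Il22, Il17a and Il10 were well above background on 0 of 8 arrays, and Il6 on 1, GF Card9-/- 2.1. Il22, which drives epithelial defence genes, lay at 2.51 to 3.56 against 2.46 to 3.62 (difference −0.01, SE 0.34). Il17a was at 2.32 to 2.33 and at 2.33 to 3.84, separated by less than 0.01 at its closest arrays, so no order is read from it. Changes in these cytokine genes were not detectable at this signal.

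Reg3b and Reg3g encode antimicrobial lectins of the epithelium. Reg3b had log2 signals of 2.496, 7.42, 4.63 and 7.89 against 2.69, 5.69, 4.84 and 6.71 (difference 0.63, SE 1.37, adjusted p = 0.964 in limma). It was high on 2 arrays of each label and near the floor on GF Card9-/- 2 and GF WT 1. Reg3g had 6.33, 7.72, 6.64 and 7.04 against 7.13, 8.20, 3.85 and 7.64 (difference 0.23, SE 0.92, adjusted p = 0.991), with GF WT 5 far below the other 7 arrays. On the slides that hold both labels Reg3b differed by −4.22 and 1.73 and Reg3g by −1.31 and −0.47.

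Il1rl1, the receptor of interleukin-33, had 4.58, 10.39, 9.75 and 9.03 against 5.26, 7.502, 3.69 and 8.34. The difference of 2.24 (SE 1.52, adjusted p = 0.913) was smaller than the range within either label, and on the mixed slides it was −3.76 and 2.89. The other tested probe of Il1rl1 differed by 0.94 (SE 0.54). Tnf differed by 0.57 (SE 0.51) and Il1b by 0.09 (SE 0.41). Gapdh, a reference gene, was at 17.47 to 17.78 and at 17.50 to 17.68.

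**Figure D4:**
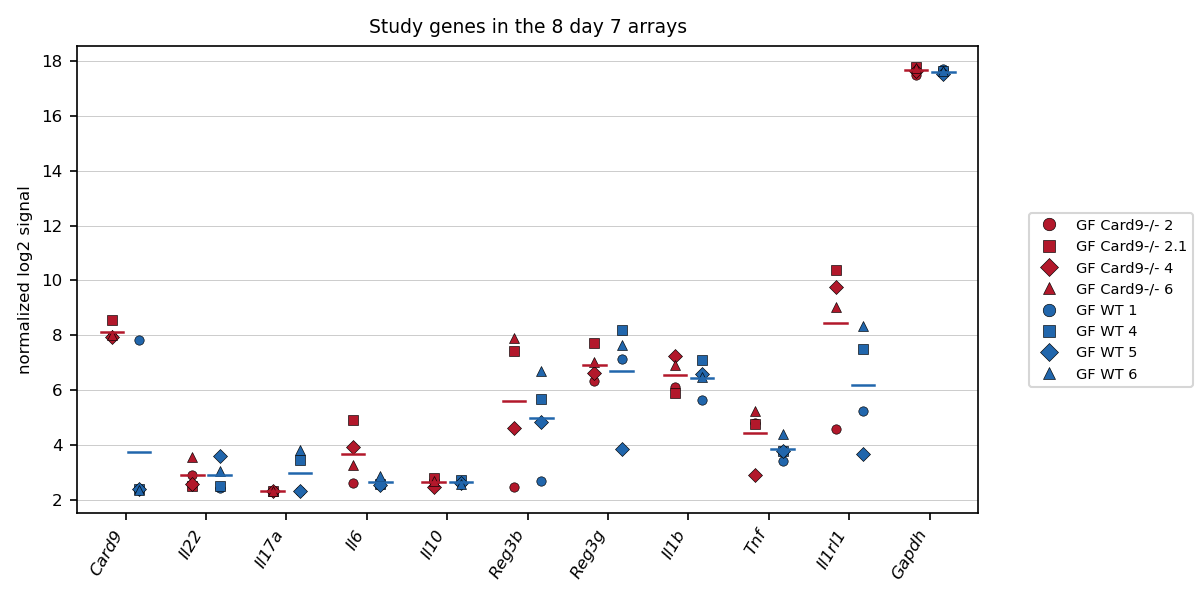
Normalized log2 signal (y axis) of Card9, of the colon genes the study names and of Gapdh, with 1 symbol per array and a bar at each label's mean over 4 arrays. Card9 on GF WT 1 lies with the arrays labelled GF Card9-/-, Il22, Il17a and Il10 lie near the floor, and Reg3b and Il1rl1 spread over more than 4 log2 units within each label.

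For gene classes, 40 lists of well-known genes with 686 tested genes were described. Each array was given a score per list, its log2 signals averaged over the genes after centring every gene on 0. No gene of any list had an adjusted p under 0.05 in limma (0 of 686), and 31 of 40 medians were above 0, where the median over all 21076 genes was 0.00 and 49.7% of them were higher. The labels did not overlap for 1.94% of all genes (1.02% higher and 0.916% lower), the share beside which the counts of list members without overlap stand. In bulk tissue, fewer cells of a type and less RNA per cell cannot be told apart.

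Among immune cells the neutrophil list had 16 of 17 genes higher, a median of 0.32, and 2 genes without overlap, S100a8 and S100a9, against 1.02% of all genes, both with values at the detection limit as given above. As with the pancreatic list below, its scores did not overlap, at 0.07, 0.14, 0.30 and 0.50 against −0.32, −0.39, −0.22 and −0.08. These scores include S100a8 and S100a9. Of the 17 neutrophil genes 6 were well above background on all 8 arrays and 6 on none. The median was 0.09 when dim values were raised to the detection limit. Elane, a neutrophil elastase, was at 8.73 to 9.57 and at 7.95 to 9.13. Among probes well above background the median was 0.20.

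The mast cell and type 2 list had 16 of 18 genes higher (median 0.62) and 2 that did not overlap, Mcpt2 and Mcpt4, against 1.02% of all genes. Mcpt4, a chymase of connective tissue mast cells, was at 7.38, 8.77, 7.60 and 8.22 against 7.08, 5.38, 6.62 and 6.58 (difference 1.58, SE 0.44). Mcpt1, a further mucosal mast cell protease, was at 7.08, 8.36, 6.31 and 7.96 against 5.72, 4.12, 5.89 and 6.31, where GF Card9-/- 4 and GF WT 6 met. All 3 proteases were lowest on GF WT 4 and highest on GF Card9-/- 2.1. Their genes are neighbours on chromosome 14, between 56638928 and 56678648, so they are not read as independent members. Under the GF WT label Mcpt2 was well above background on 1 of 4 arrays, as given above. Within the slides that hold both labels the median difference of the list was 0.10 and 0.63.

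T cell genes were higher for 15 of 18 (median 0.55, 0 without overlap), and the high scores were those of GF Card9-/- 6 (0.99) and 2 (0.60). Gzma, a granzyme, was at 8.25, 6.17, 6.63 and 8.59 against 6.76, 5.01, 4.98 and 7.98. The B cell and plasma cell list had 16 of 17 genes higher (median 0.42), yet scored 1.36 on GF Card9-/- 2, −0.96 on GF Card9-/- 2.1 and 0.77 on GF WT 1, so the spread within each label exceeded the step between them. The median of the B cell and plasma cell list ran from −0.01 to 1.45 over the alternatives. It was 2.76 between GF Card9-/- 2 and GF WT 6 and 0.09 between GF Card9-/- 2.1 and GF WT 4, each pair on 1 slide. Ms4a1, which encodes CD20, ran from 6.49 to 10.60 and from 6.59 to 9.17. Macrophage and monocyte genes were higher for 14 of 20 (median 0.06), with GF Card9-/- 6 (0.98) and GF WT 5 (0.54) at the top. The median was −0.08 without GF Card9-/- 6, −0.04 without GF WT 4, −0.07 without GF WT 6, 0.21 without GF Card9-/- 2.1 and 0.40 without GF WT 5, so no direction is read. On GF Card9-/- 6 the scavenger receptor Marco was at 11.71, against 3.99 to 6.32 elsewhere.

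The MHC class II list (13 of 16 higher, median 0.22) was highest on GF Card9-/- 6 (0.77) and 2 (0.53) and lowest on GF Card9-/- 2.1 (−0.66). Ctss, the protease that trims the invariant chain, did not overlap, at 15.79, 15.54, 15.74 and 15.76 against 15.41, 15.26, 14.91 and 15.37 (difference 0.47, SE 0.14). B2m, the light chain of MHC class I, stood in the reference gene list and did not overlap either, at 15.05 to 16.00 against 14.52 to 14.96 (difference 0.69, SE 0.23). Both are bright genes measured on all 8 arrays.

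Among signals between cells, the chemokine list had 20 of 24 genes higher (median 0.31). Ccl3, a chemokine for monocytes and neutrophils, did not overlap, at 4.12, 5.03, 5.76 and 4.31 against 2.57, 2.67, 2.55 and 3.07. It was well above background on 2 arrays labelled GF Card9-/- and on none labelled GF WT, so no fold is given. Ccl2, which recruits monocytes, was at 5.47 on GF Card9-/- 2 and at 8.15 to 8.48 on the other 3 arrays of that label, against 6.19 to 7.08. Cxcl9, induced by interferon gamma, was highest on GF WT 4 (9.71, against 3.15 to 6.85 elsewhere) and its other probe had the opposite sign (1.28).

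The inflammatory and regulatory cytokine list (15 of 21 higher, median 0.12) scored 0.29 to 0.39 on GF Card9-/- 2.1, 4 and 6 and −0.32 on GF Card9-/- 2, below all arrays labelled GF WT. Il11, a cytokine of the injured stroma, was at 3.98, 9.04, 9.44 and 8.86 against 4.74, 5.65, 5.33 and 7.16. The matrix protease gene Mmp10 (4.38, 9.83, 9.19 and 9.31 against 2.97, 5.80, 4.14 and 7.98) gave the same picture, with 3 arrays labelled GF Card9-/- above all those labelled GF WT and GF Card9-/- 2 among the low arrays. The list of matrix proteases as a whole had a median of 0.06, which turned to −0.03 with scaling to the 75th percentile, to −0.02 without GF Card9-/- 6 and to −0.34 with slide as a block, and was 0.30 without GF Card9-/- 2.

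Genes under interferon control were higher for 26 of 28 (median 0.45, 0 without overlap). Zbp1, a nucleic acid sensor, was at 8.76, 11.01, 10.82 and 11.37 against 9.22, 10.08, 7.56 and 10.24, so that GF Card9-/- 2 lay below 3 arrays labelled GF WT. Within the slides that hold both labels the median difference of the list was −0.70 and 0.34, and with slide as a block the median was −0.09. The list of pattern recognition and inflammasome genes had a median of 0.06, and that of Card9 with its receptors and partners 0.12 (12 of 17 higher). Card9 was the 1 gene of the latter that did not overlap. Its receptors Clec7a (8.42 to 9.84 over all 8 arrays) and Clec4n (8.55 to 10.19) overlapped.

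IL-22 target and antimicrobial genes were higher for 21 of 23 (median 0.39). The median difference was −0.41 between GF Card9-/- 2 and GF WT 6 and 0.23 between GF Card9-/- 2.1 and GF WT 4, each pair on 1 slide. Over the alternatives the median ran from 0.10 to 0.53. Apart from S100a8 and S100a9, from which no order is read, Fut2 was the 1 gene of the list without overlap. Fut2, which adds fucose to the epithelial surface, was at 9.07, 8.73, 8.62 and 8.89 against 9.11, 9.18, 9.36 and 9.12 (difference −0.37, SE 0.13). The largest differences were those of Retnlb (3.02, SE 1.69) and of Ang4, an antimicrobial ribonuclease of the crypt. Ang4 was at 13.03, 15.20, 13.51 and 14.63 against 10.90, 11.59, 8.99 and 13.43, where a single array labelled GF WT, 6, reached into the other label. The list of IL-17 and IL-22 cytokines and receptors had a median of 0.05 (8 of 14 higher). For the aryl hydrocarbon receptor pathway the median was −0.01 (6 of 13 higher), and 0.01 in the deposited log2 table.

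In the epithelium, goblet cell genes (12 of 16 higher, median 0.31), colonocyte genes (14 of 20, 0.28) and enteroendocrine and tuft cell genes (17 of 18, 0.47) shared a low array. GF WT 5 had the lowest score on each, −0.76, −0.74 and −1.12. Over the alternatives the medians ran from 0.01 to 0.40 (goblet), −0.03 to 0.36 (colonocyte) and 0.04 to 0.54 (enteroendocrine and tuft). Between GF Card9-/- 2 and GF WT 6, on 1 slide, they were −0.08, 0.15 and −0.32. Between GF Card9-/- 2.1 and GF WT 4, also on 1 slide, they were 0.09, 0.26 and 0.14. Cck, the hormone cholecystokinin, was at 7.47 on GF WT 5 and at 10.74 to 13.04 on the other 7 arrays. Muc2, the secreted mucin, was at 16.15, 16.94, 16.67 and 17.15 against 15.69, 16.52, 16.09 and 16.64. Tight junction genes had a median of 0.08 and mitochondrial respiratory chain genes of 0.07 (17 of 23 higher), each with score ranges under 0.5 over the 8 arrays.

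Dividing and crypt cell genes stood on the lower side. The cell cycle and DNA replication list had 15 of 23 genes lower (median −0.22, 0 without overlap), with scores of −0.58, 0.29, −0.27 and −0.02 against 0.04, 0.57, −0.34 and 0.30. Ccnb2, a mitotic cyclin, was at 9.57, 10.58, 10.11 and 9.94 against 11.10, 11.68, 9.82 and 10.96, where GF WT 5 lay among the arrays labelled GF Card9-/-. Crypt stem cell and Wnt target genes were lower for 14 of 19 (median −0.16), and 3 arrays labelled GF Card9-/- scored below all those labelled GF WT. These scores covered a range of 0.32 over the 8 arrays.

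Smooth muscle genes had the lowest median of all lists (−0.38, 14 of 16 lower), with scores of −0.41, −1.14, 0.60 and 0.32 against −1.28, 0.52, 1.01 and 0.38. The lowest scores belonged to GF WT 1 and GF Card9-/- 2.1, and without GF Card9-/- 2.1 the median was 0.01. Within the slides that hold both labels the median difference was −0.83 (GF Card9-/- 2 and GF WT 6) and −1.83 (GF Card9-/- 2.1 and GF WT 4), and with slide as a block it was −1.34. Myh11, the smooth muscle myosin, was at 12.26, 11.11, 12.85 and 13.01 against 11.67, 13.13, 14.42 and 12.90. Fibroblast and collagen genes (15 of 19 lower, −0.08) and endothelial genes (11 of 16 lower, −0.08) were highest on GF WT 5 and lowest on GF Card9-/- 2.1. Neither has a settled direction, since without GF WT 5 the medians were 0.18 and 0.26, and with slide as a block −0.36 and −0.19. The endothelial median was also 0.15 without GF Card9-/- 2.1, and the fibroblast median 0.01 without GF Card9-/- 2. Interstitial, neuronal and glial genes had a median of −0.02, with −1.09 on GF WT 1. Of the heat shock genes (12 of 20 lower, −0.05, and 0.00 with scaling to the 75th percentile) the co-chaperone Bag3 did not overlap, at 11.66 to 12.12 against 12.16 to 12.42. Among conjugating enzymes Gstm1 did not (12.96 to 13.75 against 13.76 to 13.92).

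Of all lists the pancreatic one had the widest range of scores over the arrays (8.73). It had 20 of 21 genes higher, a median of 3.81 and 5 genes without overlap, Ctrb1, Cel, Cela3b, Prss2 and Try4, against 1.02% of all genes. Its scores were −1.75, 3.32, −0.62 and 6.69 against −1.89, −1.76, −2.04 and −1.95. At their closest arrays the labels lay 0.04 apart for Ctrb1, 0.08 for Cel, 0.16 for Cela3b, 0.44 for Prss2 and 0.35 for Try4. Cela3b and Prss2 were well above background on 2 arrays labelled GF Card9-/- and on none labelled GF WT. The order of their dim arrays is not read. Amy2a5, pancreatic amylase, was at 6.00, 14.76, 9.79 and 17.99 against 6.01, 4.32, 2.68 and 4.90, where GF Card9-/- 2 met the arrays labelled GF WT. The trypsin gene Try4 was at 3.41, 12.98, 6.49 and 16.93 against 2.56 to 3.06, high on GF Card9-/- 2.1 and 6 and near the floor on GF Card9-/- 2. Without GF Card9-/- 2.1 and 6 the median of the list was 0.59. Those 2 arrays also carried the highest white adipocyte score (1.15, GF Card9-/- 2.1) and the highest T cell, macrophage and chemokine scores (GF Card9-/- 6). The part of pancreatic or attached tissue in these lists was not tested.

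White adipocyte genes were higher for 21 of 24 (median 0.64, 0 without overlap). On the slides that hold both labels the median was −0.93 (GF Card9-/- 2 and GF WT 6) and 1.48 (GF Card9-/- 2.1 and GF WT 4). Over the alternatives it ran from 0.13 to 0.98. Adipoq, which encodes adiponectin, was at 10.01, 12.59, 11.21 and 11.35 against 8.74, 10.41, 8.08 and 11.73, so that GF WT 6 was second of the 8 arrays. Mesothelial genes were highest on GF Card9-/- 2.1 (1.10) and GF WT 6 (0.65). Haemoglobin and red cell genes had a median of 0.71 (6 of 8 higher), which ran from 0.29 to 0.99 over the alternatives. It was −0.02 between GF Card9-/- 2 and GF WT 6 and 1.21 between GF Card9-/- 2.1 and GF WT 4. Genes of the small intestine had a median of 0.83 (8 of 13 higher), of 0.24 with normexp and of 0.29 in the deposited log2 table. Apob and Mttp, which build lipoproteins, did not overlap upward. Mttp was well above background on 1 of 4 arrays labelled GF WT and differed by 0.03 between its closest arrays. Fabp6, the ileal bile acid binding protein, did not overlap downward, at 9.60, 9.63, 9.44 and 9.62 against 10.29, 9.89, 10.36 and 10.16 (difference −0.60, SE 0.13). Sis, sucrase-isomaltase, was at 5.35, 9.64, 9.53 and 9.04 against 3.72, 6.00, 3.17 and 7.76, low again on GF Card9-/- 2, GF WT 1 and GF WT 5.

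**Figure D5:**
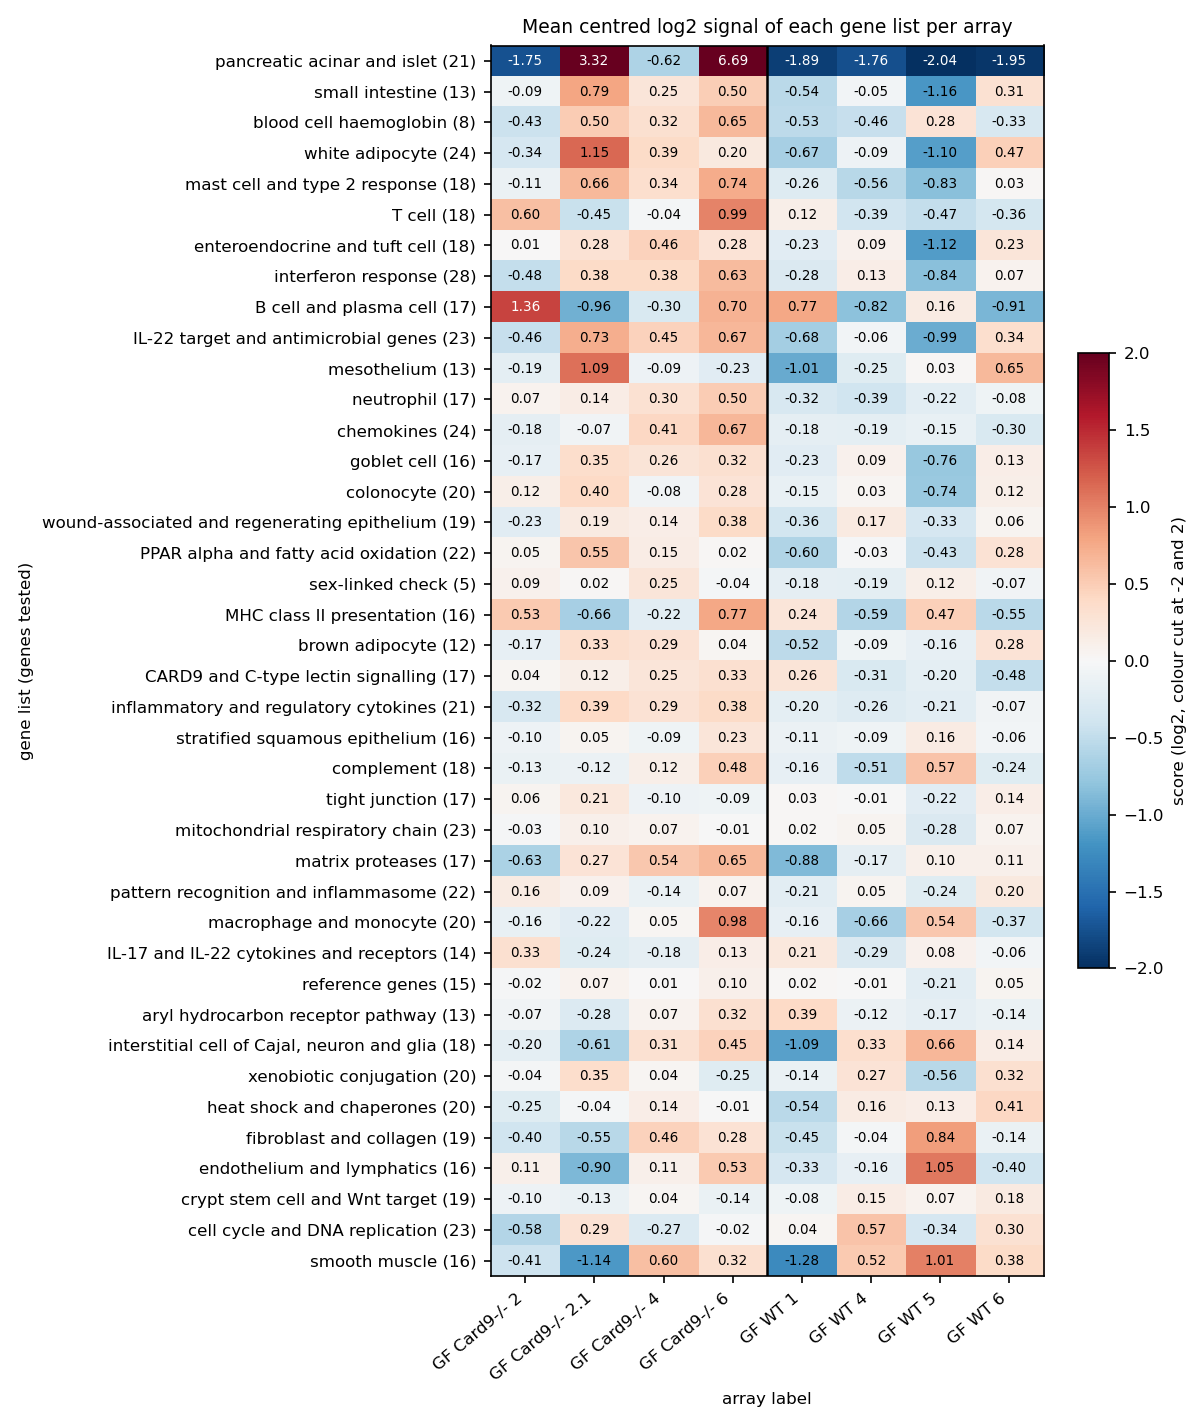
Score of each of 40 gene lists (rows, with the number of tested genes) on each of the 8 arrays (columns), as the mean centred log2 signal, with colour cut at −2 and 2 and rows ordered by the median log2 difference. The pancreatic list reaches 6.69 on GF Card9-/- 6 and the smooth muscle list −1.28 on GF WT 1. The neutrophil list is above 0 on all 4 arrays labelled GF Card9-/- and below 0 on all 4 labelled GF WT. Of its 17 genes 6 were well above background on no array, and the pancreatic scores do not overlap between the labels either.

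The same labels at day 0, before DSS, were looked up for the genes named by lack of overlap. The day 0 arrays had 12 of 47400 probes with an adjusted p under 0.05 in limma (0.0253% called). Of the 24 genes, 21 had the same probe tested on the day 0 design, 14 of these differed in the same direction, and 0 had an adjusted p under 0.05. Tmem254a and Tmem254c did not overlap at day 0 either, with differences of −0.996 (SE 0.20, adjusted p = 0.174) and −1.01 (SE 0.20, adjusted p = 0.181). Lypd6 differed by 1.45 (SE 0.40), whereas S100a9 differed by 0.54 (SE 0.65). Of the 536 probes that did not overlap at day 7 and were tested at day 0, 228 (42.5%) had the same sign there. Both probes among these with an adjusted p under 0.05 at day 0 kept their sign. The probe A_55_P1988664 of Map3k14, a kinase of the noncanonical NF-κB pathway on chromosome 11, was at 6.74, 6.66, 7.27 and 7.33 against 6.35, 6.31, 6.44 and 6.11 at day 7 (difference 0.70, SE 0.19). At day 0 its difference was 1.27 (SE 0.06, adjusted p = 6.19e-07). The other, A_55_P2150452, carries no gene symbol and lies on chromosome 2, and differed by −1.20 at day 7 and by −1.19 at day 0. Whether a difference changed between the days was not tested here.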

How the data were processed

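Colon RNA from the 8 day 7 samples was labelled with Cy3 and hybridized to 1-colour Agilent mouse arrays. Per the file headers, Agilent Feature Extraction 10.7.3.1 made the deposited intensity of each spot by subtracting background and correcting spatial trends. The same deposited files hold a p-value for each spot against its background. The authors also deposited a table of normalized log2 values of these arrays, which was used as an alternative. Coordinates are those of the file annotation (mm9), and symbols were taken from RefSeq accessions where these matched (24246 of 44624 tested probes), otherwise from the files (4210), and 16168 probes have none.

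Here log2 intensities were quantile normalized over the 8 arrays. Control spots and spots flagged as outliers were then left out, and the remaining spots of a probe were averaged. Probes were tested where the detection p was under 0.05 on at least 60% of the arrays of a label, as in the study's methods. The labels were compared with limma 3.58.1 (lmFit and eBayes, R 4.3.3) with Benjamini-Hochberg adjustment over all tested probes, after the procedure was tested on simulated data. Single values were also compared by exact permutation over arrays. Slides were read from the files, and 2 slides hold both labels. Arrays numbered 4 and 6 in both labels shared only the number.

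The gene lists, named genes and alternatives were chosen with earlier results of these data known. Named were the study's colon genes, the 12 largest differences without overlap in each direction, the genes farthest from the other arrays on each array, those at the ends of the first components, and in each list the 3 largest differences with the members without overlap. Alternatives changed the background correction, the scaling, the detection filter, the treatment of dim values, the arrays used, the blocks for slide and number, the array weights and the variance prior. Some genes that the rule names are not reported here.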

Additional observations from a re-analysis of the deposited data

Results flagged for a closer look

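Single arrays far from the other 3 of their label were found by Dixon's criterion at the 95% level. It was passed by 26 of 318 groups of gene values and by 5 of 80 groups of list scores. Chance gives about 1 in 20 where groups are not picked for their values, a rate near that of the list scores. Most of the genes were picked for their differences in these arrays, so their count is not set against that rate. Values are normalized log2 signals.

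GF Card9-/- 2 was low for Casp1 (14.34), Cck (11.49), Ccl2 (5.475), Il11 (3.98), Mmp10 (4.38), Saa3 (3.44) and Sis (5.35). GF Card9-/- 2.1 was low for Ahrr (4.49), Csdc2 (4.30) and Tie1 (6.35) and high for Ahsg (7.19) and Card9 (8.57). GF Card9-/- 4 was low for Lypd6 (5.94) and Tmem254c (10.75), and GF Card9-/- 6 was high for Ifna14 (7.60).

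GF WT 1 was high for Card9 (7.85). GF WT 5 was high for Aldh1a3 (8.62), Col3a1 (14.51), Hbb-b2 (9.53) and Plac9a (14.24) and low for Apob (10.43), Capn9 (12.76), Elane (7.945) and Ugt2b35 (7.18). GF WT 6 was high for Il6 (2.89) and Mttp (5.42). Il6 was well above background on no array of that label, and on GF WT 6 its signal before normalization (5.71 units) was the lowest of the 4, so its place there is not read as a level.

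Among the list scores, GF Card9-/- 2 was low for inflammatory and regulatory cytokines (−0.32) and GF Card9-/- 2.1 high for mesothelium (1.095). GF WT 1 was high for the aryl hydrocarbon receptor pathway (0.39). GF WT 5 was high for endothelium and lymphatics (1.05) and low for the mitochondrial respiratory chain (−0.28).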

How the results depend on the processing

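The count of probes past an adjusted p of 0.05 in limma was 0 with all arrays, 1 without GF WT 1 (Card9, 5.73, adjusted p = 0.00129) and 2 without GF Card9-/- 2.1 and 6 (probes with no symbol on chromosomes 15 and 3), with 0 to 1 over single arrays left out. The Card9 difference ran from 3.91 to 5.73 over these, with the probe at background on GF WT 4, 5 and 6, and its adjusted p from 0.00129 to 1 over all alternatives. The count at an unadjusted p under 0.05 was 825 among probes well above background, 612 with dim values raised and 1121 to 2964 with an array left out, the highest without GF WT 6. Probes without overlap numbered 563 among probes well above background, 591 with dim values raised, 2011 with GF Card9-/- 2 and 2.1 averaged, 5007 without GF Card9-/- 2.1 and 6 and 1610 (GF Card9-/- 6) to 3328 (GF WT 6) with an array left out (2109 without GF Card9-/- 2.1), where fewer arrays overlap less often by construction.

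Of 880 list medians under alternatives, 845 moved by less than the spread between arrays and 73 changed sign, and 18 of 40 lists kept their sign throughout. With normexp the median was 0.24 for small intestine, 0.11 for neutrophil and 0.096 for sex-linked genes, and the deposited table gave 0.29 for small intestine. Mast cell genes gave 1.45 among probes well above background, and neutrophil genes 0.087 with dim values raised. Without GF Card9-/- 2.1 and 6 the medians were 0.59 (pancreatic), −0.63 (cell cycle) and −0.073 (squamous epithelium). With slide as a fixed block, and within the slides holding both labels, they were −1.34 (smooth muscle), −0.75 (interstitial, neuronal and glial), 1.45 (B cell), 0.23 (mast cell), −0.090 (interferon) and −0.11 (squamous). Array weights gave −0.085 for squamous epithelium, which ran from −0.060 to 0.151 with an array left out, while sex-linked genes ran from 0.064 to 0.298. Apart from the arrays left out, the cause was not tested.

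With the replicate block, which the numbers 4 and 6 allow, 2573 probes had an unadjusted p under 0.05. The correlation of deviations was 0.11 for number 4 and 0.03 for number 6. The block gave list medians of 0.83 (macrophage), −0.30 (mesothelium), 0.27 (small intestine), −0.65 (cell cycle), 0.73 (complement), 0.74 (chemokines), 1.06 (T cell), 0.93 (MHC class II), 0.69 (endothelium), 0.46 (fibroblast) and −0.064 (squamous). Dim signals limit the rest, since 10116 tested probes were well above background on no array.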
